A study of Mus musculus with 15 samples.

Results

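In mouse testis RNA sequencing, 18 named genes were at or near 0 in some libraries and clearly expressed in others. They were selected from the 23510 rows of the expression table, of which 21302 carry an Entrez Gene ID. A gene was taken when its FPKM was 0.05 or less in at least 2 libraries and 5 or more in at least 2 others. FPKM is the number of sequenced fragments credited to a gene, scaled to the transcript's length and to all fragments mapped in that library. Of the 21 genes that met both thresholds, Fabp3, Hba-a2 and Hbb-bt were left out by the selection rule. Below, a gene is called on in a library at 5 FPKM or more, off at 0.05 or less, and intermediate otherwise. Because these values chose the genes, their on and off states are a description and carry no test.

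The 15 libraries were of whole testis from male mice of ICR, an outbred stock whose animals are not genetically identical. They formed 5 groups of 3: Con, a control that the labels describe no further, MNC, the vector control of the lentivirus, and M1, M3 and M5, in which lentivirus carried short hairpin RNAs against that muscarinic acetylcholine receptor. Per the study's methods, males aged 5 weeks were injected in the testes with a mixture of 3 hairpins for 1 receptor, or with control virus, and the testes were collected 10 days later. Virus was given to whole testes and not to a chosen cell type, and no source used here says that libraries of 1 group came from separate animals, so the p-values below measure the spread between these libraries, which may be technical. The name M3-3 stands for replicate 3 of M3, and the other libraries are named likewise.

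A gene can read as on in some animals and off in others for reasons of different kinds. Members of multicopy families share nearly all of their sequence, so the fragments of 1 copy can be credited to another. Outbred animals can also carry different alleles, and a dissected tissue can bring along cells of its surroundings. The testis is known for families of near-identical genes on the X and Y chromosomes that are transcribed in spermatids, the haploid cells that become sperm, and for replication-dependent histone genes, which lie in clusters and encode the same or almost the same protein. Genotypes and read sequences were not analysed here, so the part of alleles in the values below was not tested.

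The libraries expressed the genes of testis, and their depth could be compared only in part. The value that a single fragment adds to low genes gave a relative depth of 0.95 to 1.0 from 16 to 29 genes per library. Only values close to a gene's lowest value above 0 entered, so larger differences in depth could not show. The absolute depth is unknown. Summed FPKM was 470243 to 513817. All spermatid markers (Prm1, Prm2, Tnp1, Tnp2, Acrv1) were detected, with summed levels of 9311 to 27468 FPKM, and those of spermatocytes summed to 693 to 922 FPKM. Markers of other cells also varied between libraries. Those of Leydig cells summed to 652 to 3127 FPKM, of Sertoli cells to 317 to 597 and of macrophages to 25.9 to 96.9, each highest in M5-3. The targeted receptors were near 0 everywhere: Chrm1 was at 0.06 to 0.17, Chrm3 at 0.01 to 0.11 and Chrm5 at 0.19 to 0.43 FPKM, so their transcripts do not check the labels. The description of M5-2 names the column of M5-1, and it was mapped by its title. The library M3-3 stood apart from M3-1 and M3-2 and near the M5 libraries, as given below beside each gene that this touches.

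The sequences that set the copies of H2ac23 apart are shown first, because H2ac23 came on where Tmem89 went off. H2ac23 encodes a replication-dependent histone H2A, a core protein of the nucleosome, and lies at chr13:21810367-21810918 (GRCm38). Below are bases 1 to 90 of the coding sequence in GENCODE M21, 5′ to 3′. In the line of H2ac23, capitals mark each base at which any of the 5 genes differs, and in the other lines they mark the bases that differ from H2ac23.
H2ac23: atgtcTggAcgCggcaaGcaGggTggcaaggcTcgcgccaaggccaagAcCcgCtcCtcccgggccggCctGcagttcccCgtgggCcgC
H2ac24: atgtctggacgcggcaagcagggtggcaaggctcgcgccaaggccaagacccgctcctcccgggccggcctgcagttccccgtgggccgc
H2ac11: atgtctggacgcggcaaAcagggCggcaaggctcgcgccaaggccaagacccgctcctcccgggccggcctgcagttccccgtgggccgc
H2ac18: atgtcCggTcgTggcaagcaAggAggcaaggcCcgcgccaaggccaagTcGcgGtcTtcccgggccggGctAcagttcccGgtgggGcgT
H2ac19: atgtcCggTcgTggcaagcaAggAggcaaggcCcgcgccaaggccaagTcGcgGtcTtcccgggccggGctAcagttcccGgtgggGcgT
Over all 390 coding bases, H2ac24 had 0 differences from H2ac23, H2ac11 had 3, and H2ac18 and H2ac19 had 33 each, with 0 between these last 2 genes. In the reference, a fragment within the coding sequence of H2ac23 therefore also matches H2ac24, but not H2ac18 where it covers a base in capitals in the line of H2ac18.

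The second set shows Gm21477, a Y chromosome gene at chrY:87118246-87142720 (GRCm38), and 3 of its copies. These genes belong to the family of Sly, which is expressed in spermatids and encodes a chromatin-associated protein. Bases 43 to 132 of the coding sequence are given, with capitals as above.
Gm21477: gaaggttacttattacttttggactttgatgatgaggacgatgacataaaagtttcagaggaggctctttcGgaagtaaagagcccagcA
Gm20850: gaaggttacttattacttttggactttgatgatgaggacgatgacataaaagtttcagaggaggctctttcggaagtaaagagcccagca
Gm21409: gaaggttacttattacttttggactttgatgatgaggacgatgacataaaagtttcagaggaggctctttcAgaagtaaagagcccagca
Gm28998: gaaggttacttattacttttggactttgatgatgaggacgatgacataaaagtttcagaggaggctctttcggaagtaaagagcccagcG
Over 666 coding bases, Gm20850 had 0 differences from Gm21477, Gm21409 had 1 and Gm28998 had 4. Only fragments that reach these few positions, or untranslated parts, can tell the copies apart.

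Of the 18 genes, 0 were in a single state within each of the 5 groups, and Tmem89, H2ac23, Coro1b and Gm21477 were in a single state within 4 of them. No 2 of the genes had the same pattern over the 15 libraries. Of the 270 values, 92 were on, 78 off and 100 intermediate, and 64 were listed as exactly 0. Only Tmem89, H2ac23, Nrm and Coro1b had no intermediate value. Between 2 libraries of the same group, a median of 1 gene was on in one and off in the other (0 to 6 genes over 15 pairs), against a median of 4 between libraries of different groups (0 to 8 genes over 90 pairs). The libraries of M3 differed most among themselves, with 1, 4 or 6 such genes in their pairs. M3-3 differed in 1 to 3 genes from the M5 libraries and in 2 to 4 from those of M1, so these ranges overlapped. It differed in 3 to 5 genes from MNC and in 5 to 6 from Con. The 1 was against M5-2, where 10 of the 18 genes were intermediate and could not count. These counts share genes and libraries and are given as a description.

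**Figure D1:**
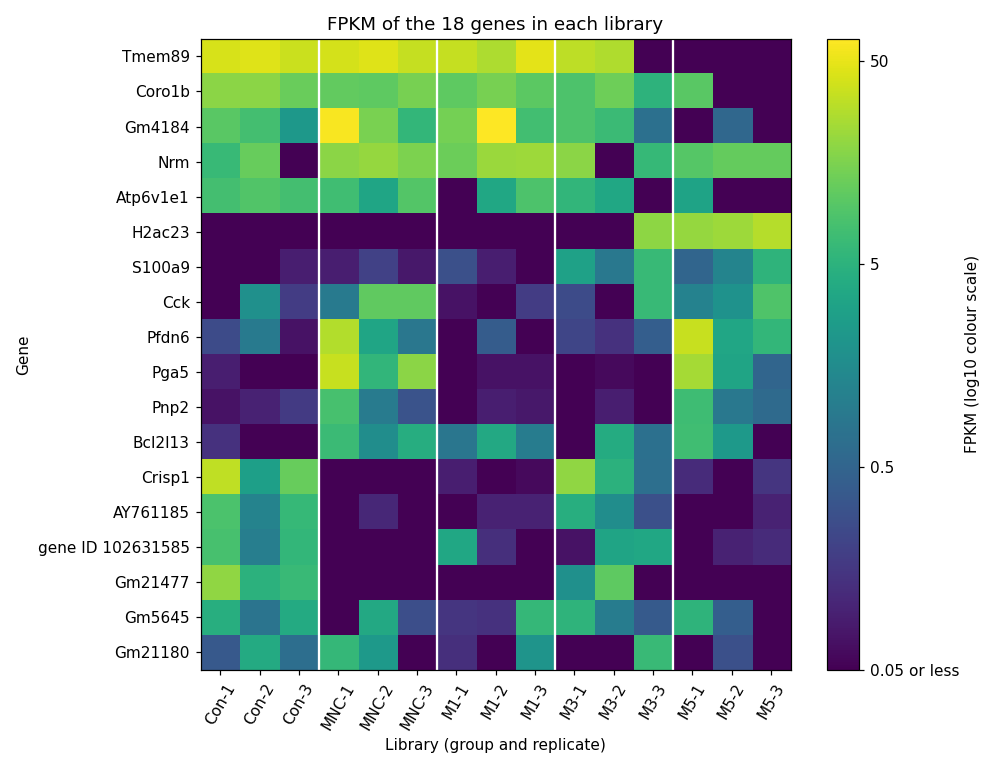
Colour gives FPKM on a log10 scale for each of the 18 genes (rows) in each of the 15 libraries (columns), with white lines between groups and the darkest colour for 0.05 FPKM or less. Tmem89 is dark in M3-3 and in all M5 libraries, where H2ac23 is bright, and Crisp1, AY761185 and Gm21477 are bright in Con and in M3 libraries.

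Tmem89 encodes a small transmembrane protein and lies at chr9:108914619-108915563. It was at 41.1, 45.05 and 35.8 FPKM in Con, at 40.7, 45.7 and 33.7 in MNC, and at 34.5, 26.4 and 47.5 in M1. In M3 it was at 31.8, 27.3 and 0 FPKM, and it was listed at 0 in all 3 M5 libraries. Thus 11 libraries held 26.4 to 47.5 FPKM and 4 held none, with nothing between. H2ac23 was the exact mirror: it was listed at 0 in those 11 libraries, at 19.1 FPKM in M3-3, and at 20.8, 22.6 and 28.7 FPKM in M5. Fabp3, which the rule leaves out, was at 22.4 to 72.6 FPKM in the same 11 libraries, at 0 in M3-3 and at 0 to 0.84 FPKM in M5.

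The genes beside Tmem89 did not share its states. Slc26a6, an anion transporter 1570 bases away, was at 0.72 to 1.39 FPKM in the 15 libraries, and Uqcrc1, a subunit of mitochondrial complex III, at 105 to 137 FPKM. Neither was called by limma in the comparisons of M5, M1 or M3 with MNC or of MNC with Con. Beside H2ac23, the histone gene H2bc23 lies 168 bases away and was at 0.23 to 1.76 FPKM, with 0.41, 0.23 and 1.01 FPKM in M5 and 0.55 in M3-3. Another gene of this cluster, H4bc24, had the same values as H2bc23 in every library, so the values of these 2 genes cannot be told apart. On the other side, H4c17 lies 828 bases from H2ac23 and was at 0 to 0.5 FPKM. The state of each gene thus changed without a like change in the values credited to its neighbours.

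The 250 bases before the annotated starts of this mirrored pair were searched on both strands for the core of the CCAAT box (letters CCAAT), for the TATA box (letters TATAAA), and for part of the cyclic AMP response element (letters TGACG). They are printed 5′ to 3′ from RefSeq (GRCm38.p6), both on the + strand, with the matches in capitals.
Tmem89, chr9:108914369-108914618: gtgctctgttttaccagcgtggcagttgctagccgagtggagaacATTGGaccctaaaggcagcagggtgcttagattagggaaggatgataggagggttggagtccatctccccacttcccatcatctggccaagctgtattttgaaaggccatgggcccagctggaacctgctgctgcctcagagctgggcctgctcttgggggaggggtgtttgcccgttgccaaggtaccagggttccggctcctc
H2ac23, chr13:21810117-21810366: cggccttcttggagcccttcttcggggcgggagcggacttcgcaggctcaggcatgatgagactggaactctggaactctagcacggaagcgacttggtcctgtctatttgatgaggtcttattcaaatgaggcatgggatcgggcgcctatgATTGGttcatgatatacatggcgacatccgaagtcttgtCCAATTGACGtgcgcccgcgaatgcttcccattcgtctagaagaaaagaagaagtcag
CCAAT matched 1 time before Tmem89, on the opposite strand, and 2 times before H2ac23, where the match on the printed strand is directly followed by the 1 TGACG. The share of all 32851 RefSeq promoters that hold CCAAT in this window is 33.8%, and it is 17.8% for TGACG and 12.4% for TATAAA, which matched neither. CCAAT was thus the only one of these motifs in both windows.

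H2ac23 had 19 close protein copies in the table, proteins at least 90% identical over at least 80% of the longer one, and 8 of them were identical over its whole length. Most were low: 7 of the 19 had a mean of 1 FPKM or more. H2ac24, with the same coding sequence, was at 0 to 1.52 FPKM, and at 0 in M3-3 and all M5 libraries. H2ac18 held most of the family, with 319, 317 and 302 FPKM in Con, 260, 305 and 316 in MNC and 265, 267 and 259 in M1. In M3 it was at 290, 286 and 203 FPKM, and in M5 at 172, 144 and 189. The M5 libraries and M3-3 were therefore below the other 11 libraries, which held 259 to 319 FPKM.

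H2ac18 was not part of the selection, and its difference could be tested. It was lower in M5 than in MNC by limma (log2 difference -0.80, SE 0.12, limma adjusted p = 0.0239, n = 3 each, without overlap), but the call is lost under 6 of 12 alternatives, with adjusted p of 0.00605 to 0.0996. H2ac19, whose coding sequence equals that of H2ac18, had 73.9, 90.8 and 94.6 FPKM in M5, 99.6 in M3-3 and 38.5 to 76.5 in the other 11 libraries, an overlap of the ranges. Summed, H2ac18 and H2ac19 were at 246, 235 and 283 FPKM in M5, at 303 in M3-3 and at 309 to 385 in the others. With H2ac23 and all 19 copies together, M5 held 299.8, 292 and 358 FPKM, M3-3 held 360.1, and the others 339.8 to 429, so these totals overlapped. The 19 to 29 FPKM of H2ac23 in 4 libraries made up at most 8.02% of the family total. Per the study's methods the libraries were of poly(A) RNA, so these values and totals do not cover histone transcripts without a poly(A) tail.

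**Figure D2:**
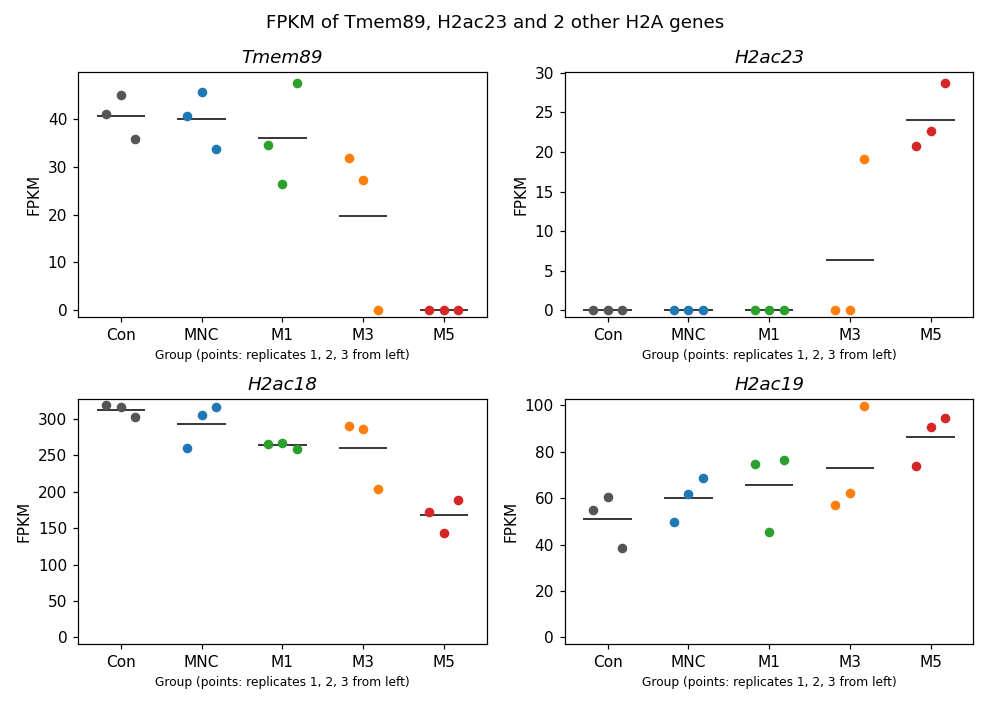
FPKM of Tmem89, H2ac23, H2ac18 and H2ac19 (vertical axes) by group, with 1 point per library and a bar at the group mean. The M3 points of Tmem89, H2ac23 and H2ac18 lie apart, with replicate 3 beside the M5 points.

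A further pair of genes was off in 2 M5 libraries. Coro1b, an actin-binding coronin at chr19:4148611-4154035, had 10.4, 0 and 0 FPKM in M5, and 5.15 to 18.7 in the 12 libraries of the other groups. It shares 432 exonic bases on the same strand with Ptprcap, which was at 0 to 1.64 FPKM. Gm4184, a short pseudogene within Anks1b on chromosome 10, had 0, 0.54 and 0 FPKM in M5 and 0.71 in M3-3. In MNC it was at 59.8, 15.1 and 5.65 FPKM, in M1 at 14.2, 63.9 and 7.37, in Con at 10.2, 7.51 and 2.24, and in M3-1 and M3-2 at 8.73 and 6.61. Its host gene Anks1b was at 1.87 to 3.4 FPKM throughout.

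The copies of Gm21477 were the second family whose make-up differed between libraries. Gm21477 was at 19.7, 5.03 and 6.4 FPKM in Con and at 1.82, 10.97 and 0 in M3, and it was listed at 0 in all libraries of MNC, M1 and M5. It had 38 close protein copies in the table, 20 of them identical over the whole protein, and 51 copies when transcripts at least 90% identical over 80% of the shorter one were counted in. Gm20850, with the same coding sequence, was at 3.65, 5.08 and 3.95 FPKM in Con and at 4.71 to 10.98 FPKM in MNC. Its row was identical in every library to those of Gm20903, Gm20916, Gm20929, Gm21317 and Gm21366, a set of 6 genes with 1 series of values. Of the 14514 rows with a mean of 1 FPKM or more, 36 (0.248%) had such a twin, and 14 of the 51 copies were among them.

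Summed over Gm21477 and its 51 copies, the family was at 124.9 to 193 FPKM in 14 libraries and at 336 in MNC-1. The excess of MNC-1 lay in other copies than Gm21477, such as Gm20931 with 21.7 FPKM against 0 to 1.8 elsewhere, and Gm20901 with 20.2 against at most 1.88. Gm21477 was off in MNC-1. A high family total and a high Gm21477 thus did not go together.

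Gm21409, which differs from Gm21477 at 1 coding base, had 8.3, 10.8 and 8.24 FPKM in the M5 libraries and 26.9, 21.8 and 23.1 in MNC (log2 difference -1.30, SE 0.13, limma adjusted p = 0.00981, n = 3 each). It was at 13.6 FPKM in M3-3 and at 21.4 to 30.9 in the other 11 libraries. Gm28998, which differs at 4 bases, went the other way, with 12.7, 12.3 and 11.2 FPKM in M5 against 4.6, 5.12 and 5.46 in MNC (log2 difference 1.11, SE 0.098, limma adjusted p = 0.00634, n = 3 each). It was at 12.6 FPKM in M3-3 and at 4.59 to 8.68 in the others. Both were called in 10 of 12 alternatives, and M3-3 lay on the side of M5 for each.

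Gm35134 had 3.43, 3.01 and 4.07 FPKM in M5, 2.19 in M3-3, and 0 to 1.12 in the other 11 libraries (M5 against MNC, log2 difference 1.66, SE 0.28, limma adjusted p = 0.0299, n = 3 each). Gm20855 and Gm20894, which had identical values, were at 6.84, 6.83 and 6.3 FPKM in M5, 6.0 in M3-3 and 1.34 to 4.34 elsewhere (log2 difference 0.86, SE 0.13, limma adjusted p = 0.0218, n = 3 each). With a pseudocount of 0.1, the log2 difference of Gm35134 was 3.25 and not called (limma adjusted p = 0.0756). Gm35134 was not called in 8 of 11 alternatives, and each of the other 2 genes was not called in 5 of 11. Copies that share reads are not independent of each other.

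In all, 32 of the 58 close protein copies of H2ac23, Gm21477 and Pnp2 reached the mean of 1 FPKM needed for a test. Among them, 14 copies of Gm21477 formed 3 sets, each with 1 series of values, so the 32 are not 32 separate measurements. In M5 against MNC limma called 6 of the 32, 4 higher and 2 lower, beside 5.65% of all 14514 genes tested. The 4 include Gm20855 and Gm20894, which form 1 of these sets. In M1 and in M3 against MNC it called 0 of the 32, with 2 in M1 and 1 in M3 at an unadjusted p under 0.05 (all genes: 0% and 0.00689% called, and 5.94% and 9.43% at the unadjusted p). In MNC against Con it called 1, H2ax, the H2A variant of the DNA damage response, at 23.9 ± 2.67 against 31.5 ± 2.69 FPKM (SD, n = 3 each, log2 difference -0.39, SE 0.098, limma adjusted p = 0.0408), beside 20.4% of all genes. That call is lost under 8 of 12 alternatives, as when each library is centred on its median. Set against M1 directly, M5 differed in 13 of the 32 copies, 11 higher and 2 lower, beside 6.75% of all genes. Of the higher ones, 6 are the genes with the values of Gm20850, and 2 are Gm20855 and Gm20894. Set against M3, M5 differed in 0 of them by limma, beside 0.0138% of all genes. At an unadjusted p under 0.05 there were 12, beside 14.3% of all genes. The 12 include the 6 genes with the values of Gm20850, and Gm20855 and Gm20894, which also had identical values. For the 6 copies called in M5 against MNC, M3-3 was nearer to the M5 libraries than M3-1 and M3-2 were, and without it limma called 2 of the 32 between M5 and M3, Gm35134 and Gm21409, beside 1.3% of all genes. That fit was chosen after the values were seen.

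The count of 6 in M5 changed when single libraries were left out. It was 2 without M5-1, 1 without M5-2, 2 without MNC-2 and 1 without MNC-3, and 5 or 6 without M5-3 or MNC-1. In the first 4 of these fits the calls over all genes fell as well, from 820 to 85, 35, 92 and 60 (0.586%, 0.241%, 0.634% and 0.413% of those tested). The log2 difference stayed at 1.05 to 1.16 for Gm28998 and at -1.42 to -1.22 for Gm21409 when any 1 library was left out. The 18 selected genes all reached the same mean and were part of the fits. Their own calls are not given, because they would use the values that chose the genes.

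**Figure D3:**
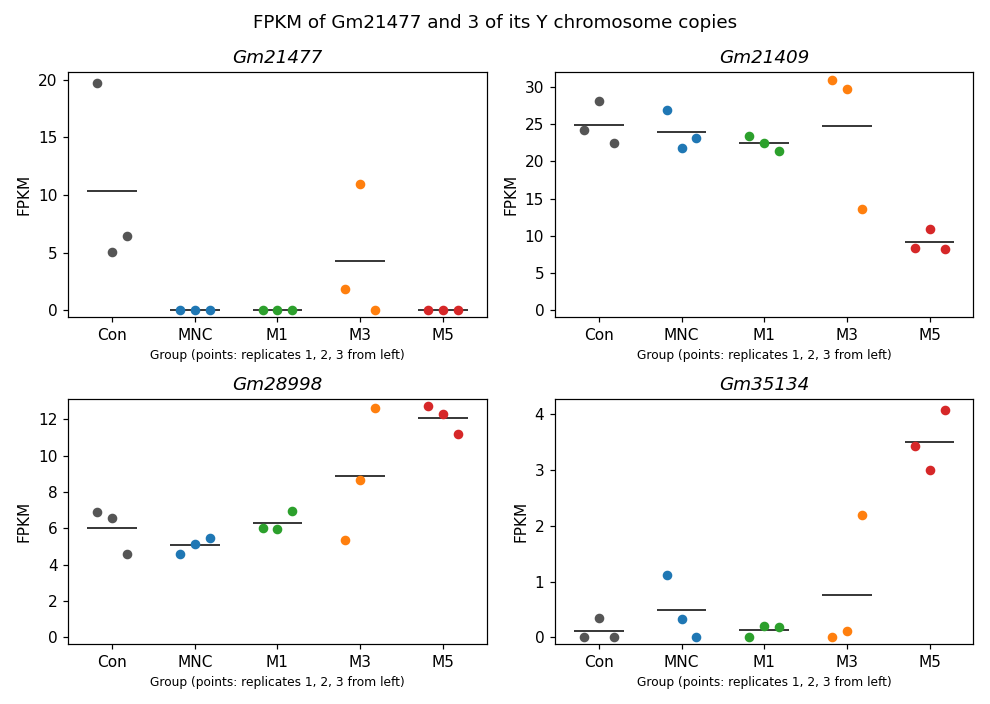
FPKM of Gm21477 and of its copies Gm21409, Gm28998 and Gm35134 (vertical axes) by group, with 1 point per library and a bar at the group mean. Gm21409 is lowest and Gm28998 and Gm35134 are highest in M5 and M3-3, while Gm21477 is on in Con and M3-2.

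Gm21180 and Gm5645 were a small part of their families. Gm21180, on chromosome Y, had 119 transcript copies in the table, and it was at 5.85 FPKM in MNC-1, 6.38 in M3-3 and 0 to 3.95 elsewhere, while the family total was 240.3 to 466 FPKM. Its share of that total was at most 1.55%. Gm5645, on chromosome X beside the Samt1 genes, had 8 transcript copies, of which Gm5947 was 99.7% identical. It was at 0 to 5.9 FPKM within a family total of 53.0 to 85.1 FPKM.

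Pnp2 has 1 close copy in the table, Pnp, whose protein is 96.9% identical. Both encode purine nucleoside phosphorylase, an enzyme of purine salvage. Pnp2 was at 7.99, 0.97 and 0.31 FPKM in MNC and at 6.95, 0.87 and 0.6 in M5, and at no more than 0.17 in Con, M1 and M3. Pnp was at 1.6 to 6.04 FPKM in all 15 libraries, with 4.07, 2.56 and 2.43 in MNC. Pnp2 made up at most 66.4% of the total of the pair, in M5-1. In each of MNC and M5, replicate 1 was the only library with Pnp2 on.

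The same 2 libraries, MNC-1 and M5-1, held the 2 highest values of 4 of the 18 genes: Pnp2, Pga5, Pfdn6 and Bcl2l13. No other pair of libraries led more than 2 genes. Pga5 encodes pepsinogen, a digestive protease precursor made in the stomach, and was at 35.5, 5.48 and 18.3 FPKM in MNC and at 24.3, 3.29 and 0.51 in M5, against at most 0.09 in the other 9 libraries. Its neighbours on chromosome 19 did not follow it, with Vwce at 0.35 to 0.88 FPKM and Vps37c at 7.29 to 17.9.

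Pfdn6 encodes a subunit of prefoldin, a chaperone of newly made actin and tubulin, and lies at chr17:33938909-33940343 in the major histocompatibility region. It was at 28.01, 3.33 and 0.86 FPKM in MNC, at 35.6, 3.43 and 5.71 in M5, and at 0 to 0.93 in Con, M1 and M3. Part of the neighbours shared its 2 highest libraries. Of 16 other genes with a mean of at least 0.3 FPKM within 100 kb, 5 had their 2 highest values in the same 2 libraries: Wdr46, Rps18, Vps52, Ring1 and Slc39a7. The other 11 did not, among them the nearest on the left, Rgl2, which was at 5.14 FPKM in MNC-1, 3.73 in M1-2 and 3.31 in M5-1. Of the 5, Ring1 was at 2.48 to 6.64 FPKM and Slc39a7 at 5.02 to 14.1 over the 15 libraries. Neither was near 0 in Con, M1 and M3 as Pfdn6 was. Rps18, a protein of the small ribosomal subunit, was at 155, 34.1 and 10.2 FPKM in MNC and at 134, 28.2 and 7.02 in M5, and at 3.88 to 8.03 in the other 9 libraries.

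Wdr46 starts 291 bases from Pfdn6 and was at 6.27, 0.94 and 1.26 FPKM in MNC, at 5.36, 0.64 and 1.44 in M5 and at 0.05 to 1.7 elsewhere. Vps52, a subunit of a vesicle tethering complex, was at 11.2 FPKM in MNC-1, 9.12 in M5-1 and 0.22 to 4.63 elsewhere. Not every gene of the stretch varied so, since Zbtb22 was at 13.6 to 21.7 FPKM. H2-K1, a class I histocompatibility gene of the same window, had its highest values in other libraries, with 78.7 FPKM in M1-2 and 77.5 in M5-3 and 9.2 to 47.1 elsewhere.

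**Figure D4:**
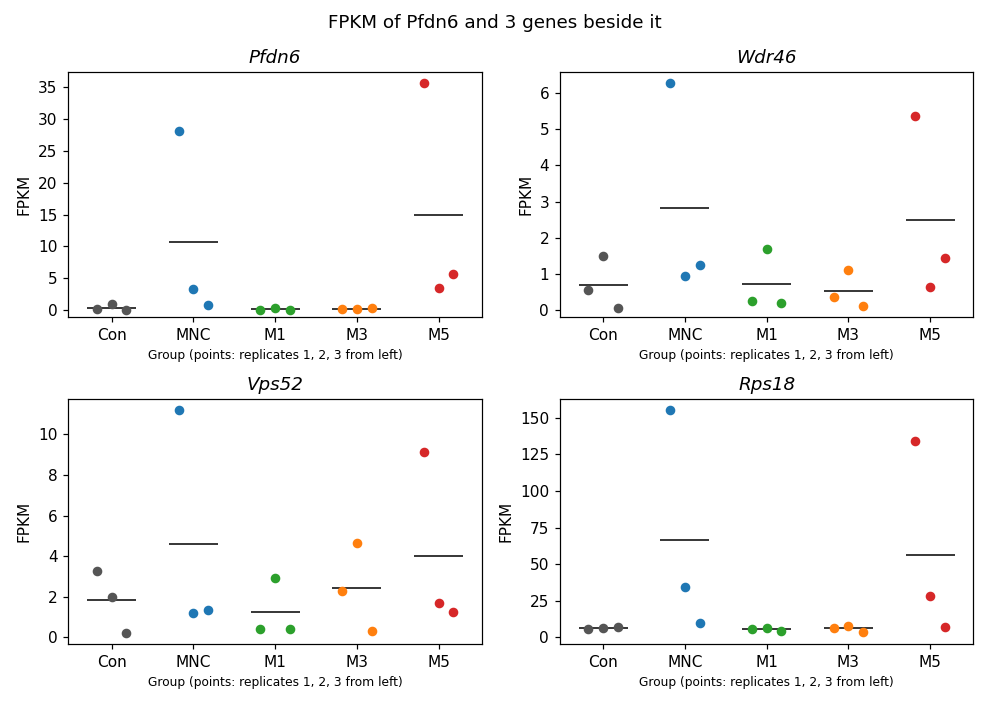
FPKM of Pfdn6, Wdr46, Vps52 and Rps18 (vertical axes) by group, with 1 point per library and a bar at the group mean. In each panel the 2 highest points are replicate 1 of MNC and replicate 1 of M5.

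Bcl2l13, an apoptosis-related protein of mitochondria, and Atp6v1e1, a subunit of the vacuolar proton pump, lie 13508 bases apart on chromosome 6, the only pair of the 18 within 1 window of 100 kb. Bcl2l13 was at 0.14, 0 and 0 FPKM in Con, 6.63, 1.69 and 4.33 in MNC, 0.83, 3.8 and 1.0 in M1, 0, 4.07 and 0.7 in M3, and 7.18, 2.37 and 0.05 in M5. Atp6v1e1 was at 7.45, 9.13 and 7.47 FPKM in Con, 7.16, 3.36 and 9.47 in MNC, 0, 3.58 and 8.56 in M1, 5.57, 3.54 and 0 in M3, and 3.13, 0 and 0.02 in M5. Their states were not mirrored, since both were on in MNC-1 and both were off in M5-3.

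Of 5 other genes in the window of Bcl2l13, 3 had their 2 highest values in MNC-1 and M5-1 as well: Cecr2, Slc25a18 and Bid. Cecr2 was at 2.25 to 7.06 FPKM over the 15 libraries. Bid, a pro-apoptotic protein, was at 1.49 FPKM in MNC-1, 1.48 in M5-1 and 0 to 1.15 elsewhere, and Slc25a18, a mitochondrial glutamate carrier, at 2.26, 2.93 and 0 to 1.82. Bid shares 628 exonic bases with Bcl2l13 on the opposite strand, which are 6.9% of the exonic bases of Bcl2l13. Whether the counting used strand is not given in the sources used here, so reads within these shared bases cannot be assigned to either gene. Mical3, next in line, was at 40.0 to 101 FPKM.

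Nrm, which encodes nurim of the nuclear envelope, lies at chr17:35860311-35865400, also in the histocompatibility region. It was at 6.21, 12.2 and 0 FPKM in Con and at 18.4, 0.01 and 5.97 in M3, and at 9.72 to 22.3 in MNC, M1 and M5. The libraries Con-3 and M3-2 were off while every other was on. Its neighbour Mdc1, a mediator of the DNA damage response 641 bases away, was at 17.7 FPKM in M3-2 and 14.4 in M3-3 but 33.2 in Con-3, within the 23.6 to 43.3 of the rest. Abcf1, a translation factor in the same window, was at 12.5 FPKM in M3-2, 2.62 in M3-3 and 19.96 to 47.3 elsewhere.

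Mdc1 was lower in M5 than in MNC, at 24.5 ± 0.935 against 38.0 ± 1.56 FPKM (SD, n = 3 each, log2 difference -0.61, SE 0.063, limma adjusted p = 0.0101), and was not called in 5 of 12 alternatives. Ppp1r18, on the other side of Nrm, was at 7.84 ± 0.426 FPKM in M5 and 11.4 ± 1.28 in MNC (log2 difference -0.48, SE 0.1, limma adjusted p = 0.0488, n = 3 each) and at 7.36 ± 0.301 in Con (MNC against Con, log2 difference 0.56, SE 0.088, limma adjusted p = 0.0192). The first of these 2 calls is lost under 9 of 12 alternatives and the second under 3. Both comparisons share the MNC libraries. Of the 15 neighbours tested, limma called 2 in M5 against MNC and 1 in MNC against Con, beside 5.65% and 20.4% of all genes. It called 0 in M1 and in M3 against MNC (0% and 0.00689% of all genes), where 2 and 4 had an unadjusted p under 0.05 (5.94% and 9.43% of all genes), and 1 was called in M3 without M3-1. Without M5-2, MNC-2 or MNC-3 the count in M5 was 0, and it was 1 without each of M5-1, M5-3 and MNC-1.

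A last group was highest in Con-1. Crisp1, a cysteine-rich secretory protein made by the epididymis, the duct attached to the testis, was at 32.3, 2.86 and 12.2 FPKM in Con, at 19.4, 5.03 and 0.68 in M3, and at 0.03 to 0.15 in MNC, M1 and M5. AY761185, a defensin-like gene on chromosome 8, was at 8.33, 1.23 and 5.96 FPKM in Con and 4.49, 1.69 and 0.29 in M3, and at most at 0.11 elsewhere. Gene ID 102631585, which has no symbol in the tables used, was at 8.09, 1.08 and 5.64 FPKM in Con, 0.07, 3.29 and 3.57 in M3, 3.59 in M1-1 and at most 0.13 in the other 8 libraries.

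Other epididymal markers were above 0 in part of these libraries. Adam7 was at 1.63, 6.83 and 1.29 FPKM in Con, 1.71, 0.44 and 0.06 in M3, and at most 0.02 in the 9 libraries of MNC, M1 and M5. Crisp1 is itself 1 of the 5 markers and was selected here, and the other 4 (Lcn5, Adam7, Spink13, Defb42) summed to 1.97 to 12.13 FPKM in Con, 0.2 to 2.46 in M3, 0.16 to 0.36 in MNC, 0.15 to 0.42 in M1 and 0.07 to 0.43 in M5. Lcn5 was at 0 except for 0.4 in Con-2. Crisp1 was highest in Con-1, whereas Adam7 and Defb42 (4.79 FPKM) were highest in Con-2. The part of epididymal tissue in the values of AY761185 and gene ID 102631585 was not tested.

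**Figure D5:**
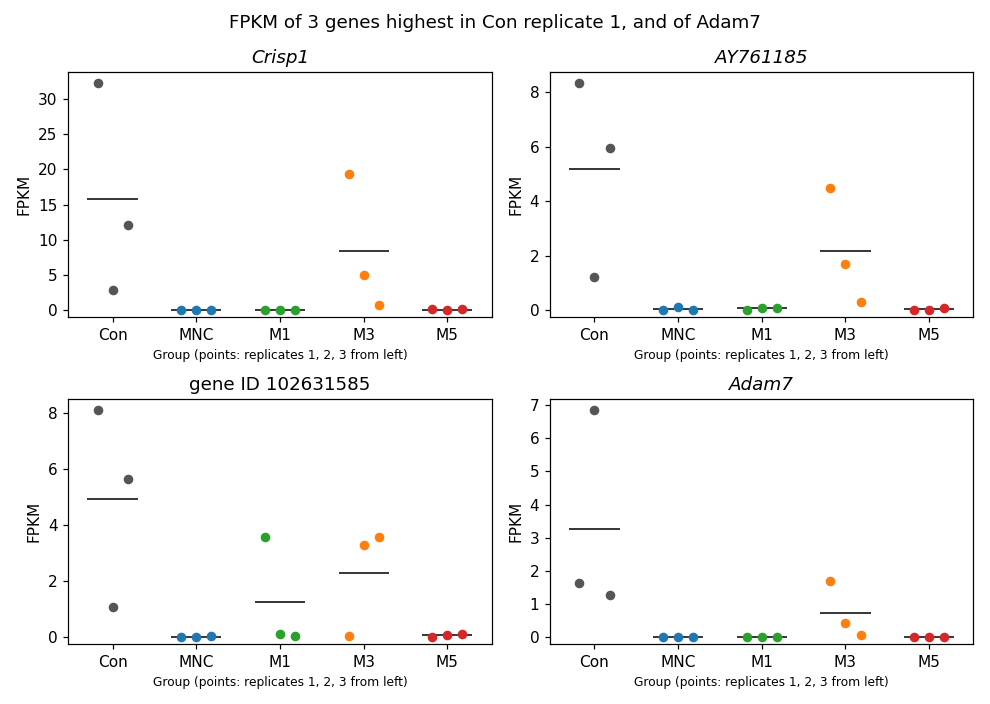
FPKM of Crisp1, AY761185, gene ID 102631585 and the epididymal marker Adam7 (vertical axes) by group, with 1 point per library and a bar at the group mean. Points above 1 FPKM occur in Con and M3 libraries and, for gene ID 102631585, in M1-1 (3.59 FPKM).

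The remaining genes mark other cells or signals. S100a9, a subunit of calprotectin of neutrophils, was at 2.99, 0.88 and 6.17 FPKM in M3 and 0.52, 1.25 and 5.22 in M5, against 0 to 0.29 in Con, MNC and M1. Its partner S100a8, 22596 bases away, was at 2.86, 0.79 and 4.26 FPKM in M3 and 0.77, 0.12 and 4.53 in M5, against 0 to 0.39. The summed markers of red blood cells were at 148 to 491 FPKM in M5, highest in M5-3, and at 21.8 to 98.8 in the other groups, and in bulk tissue more cells of a type and more RNA per cell cannot be told apart. Cck, the hormone cholecystokinin, was at 0.93, 11.1 and 11.2 FPKM in MNC, 6.2 in M3-3, 8.9 in M5-3 and 0 to 1.92 in the other 10 libraries.

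The selection was sensitive to its thresholds. The lowest second-highest values inside it were 5.22 FPKM for S100a9, 5.3 for Gm5645 and 5.64 for gene ID 102631585, and the nearest genes outside were Gpx5 with 4.64, Tex52 with 4.59 and Gm21287 with 4.51. Gpx5, an epididymal peroxidase, was at 43.3 FPKM in Con-2. On the other side, Klrb1 missed with a second-lowest value of 0.07 FPKM, and Cxcl9 and Cxcl10, interferon-induced chemokines, with 0.08. Leaving out single libraries left 14 to 18 of the genes, with 14 when MNC-1 or M5-3 was left out. Without M3-3, which carries part of the pattern of Tmem89 and H2ac23, 16 genes remained. Tmem89 and H2ac23 were still among them, and the genes lost were S100a9 and Gm21180.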

How the data were processed

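Each library's group and number come from its title. Per the study's methods, reads of poly(A) RNA (Illumina HiSeq) were mapped with SOAPaligner. The labels name the build mm10, and the annotation is not given in the sources used here. The authors deposited 1 table of FPKM values to 2 decimals, so no count test was run. Of its 21302 Entrez IDs, 21143 matched RefSeq (GRCm38.p6), which gave names and coordinates. The titles name testis, while the extraction text speaks of sperm.

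The genes, lists and tests were chosen with earlier results of these data known. Genes named are the pair Tmem89 and H2ac23, those with the highest mean where on, those with close copies, those nearest to the thresholds, and copies or neighbours called. The remaining members are also given, chosen after their values were seen. Copies were to be found with RefSeq proteins; translated GENCODE M21 coding sequences (14 of the 18 genes) were used in their place, and transcripts of 16 genes were aligned with blastn 2.17.0 (at least 200 bases). Gm4184 and gene ID 102631585 had no such transcript and were not searched for copies.

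Tests used limma 3.58.1 in R 4.3.3 on log2(FPKM + 1), a scale that understates changes of low genes. Each fit held 2 groups and all 14514 genes with a mean of 1 FPKM or more, with two-sided Benjamini-Hochberg adjusted p under 0.05 as a call, and was tested on simulated data. Alternatives were other thresholds, pseudocounts, filters, centring, 1 fit of all groups, a replicate block and leaving out libraries. Python 3.11.15 and pandas 2.3.3 were also used.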

Additional observations from a re-analysis of the deposited data

Results flagged for a closer look

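The 6 copies that limma called in M5 against MNC also differed directly between M5 and M1. That is the difference between the 2 effects against the shared MNC libraries. Among copies of Gm21477, M5 was higher than M1 by 1.99 on the log2 scale for Gm35134 (SE 0.136, limma adjusted p = 0.00272), by 0.84 for Gm28998 (SE 0.0915, limma adjusted p = 0.0105) and by 0.64 for each of Gm20855 and Gm20894, whose values are identical (SE 0.101, limma adjusted p = 0.0215). M5 was lower than M1 for Gm21409, with a log2 difference of -1.22 (SE 0.111, limma adjusted p = 0.00689), and for the histone gene H2ac18, with -0.66 (SE 0.098, limma adjusted p = 0.0197). Of all genes, 6.75% were called in that comparison, and of the 32 copies tested, 13. The 6 copies were picked by their calls against MNC, which use the same M5 libraries, so they cannot be set against that share. With M3 in place of either group, limma called 0 of these copies, beside 2 of all genes against M5 (0.0138%) and 0 against M1. In M3-3 each of these 6 copies was nearer to the M5 libraries than in M3-1 and M3-2. Without M3-3, a fit chosen after seeing the data, limma called Gm35134 (log2 difference 2.08, SE 0.155, adjusted p = 0.0099) and Gm21409 (-1.64, SE 0.134, adjusted p = 0.0141) between M5 and M3, beside 1.3% of all genes.

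Rows without a gene name were not part of the report. Of 67 such rows that met the same 2 thresholds, 5 were off in all 6 libraries of Con and MNC and on in at least 2 others, and all of their on libraries were M3-3 or of M5. BGI_novel_G000248 reached 14.8 FPKM, BGI_novel_G000721 7.0, BGI_novel_G000799 35.8, BGI_novel_G001303 32.8 and BGI_novel_G001533 13.6. Of these, 4 were on in M3-3.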

How the results depend on the processing

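The number of genes meeting the rule was 68 with on at 2 FPKM, 10 with on at 10 FPKM, 7 with at least 3 libraries each way, and 14 to 18 when single libraries were left out. Genes with a copy numbered 3 by protein and 5 by transcript, a choice made after seeing the data. The copies called in M5 against MNC numbered 3 of 15 tested with a mean FPKM of 5 as filter and 4 of 58 with no filter, instead of 6 of 32. They stayed at 6 with centring and with all groups in 1 fit, and numbered 1 to 6 without single libraries. The neighbours called numbered 1 of 32 with no filter, 3 of 7 with a mean of 5 and 1 of 15 with centring, instead of 2 of 15. Without single libraries they numbered 0 to 1. The share of all genes called was 11.9% with a mean of 5, 1.97% with no filter and 1.25% with centring, instead of 5.65%. It was 16.7% with all groups in 1 fit and 0.241% to 6.52% without single libraries. For M5 against M3, copies called were 2 instead of 0 without M3-3, a fit also chosen after seeing the data. The share of all genes called was 1.3% instead of 0.0138%. For M3 against MNC, neighbours called were 0 to 1 without single libraries, with the 1 beside 0.0965% of all genes. For MNC against Con, copies called were 0 instead of 1 with no filter and with centring. They were 2 with all groups in 1 fit, where neighbours were also 2 instead of 1. The share of all genes called was 6.94% with no filter, 12.9% with centring and 21.5% in 1 fit, instead of 20.4%. Copies and neighbours were each 0 to 1 without single libraries, beside 0.0551% to 17.2% of all genes. With the replicate block, 0 copies and 0 neighbours were called in M5, M1 and M3 against MNC and in MNC against Con. Calls over all genes fell as well, to 14 (0.0965%) in M5 against MNC and to 10 (0.0689%) in MNC against Con. M5 against M3 was not fitted with the block. Whether the replicate numbers pair libraries was not settled. The correlation of deviations of same-numbered libraries was -0.0525 to 0.177 for M5 and MNC and -0.399 to 0.0607 for the others. For M5 and MNC it exceeded the highest one with another number in replicates 1 (0.102 against 0.0031) and 2 (0.177 against 0.0779). It was lower in replicate 3 (-0.0525 against 0.0391) and in every replicate of the others. With 3 libraries per group, such correlations cannot exclude a pairing. Over 10 single results for copies and neighbours, 64 of 117 alternative fits kept the call, 53 lost it and 0 reversed. A fit that leaves a group with 2 libraries still pools the spread over genes. Absolute depth is unknown, so the level below which a gene is listed at 0 FPKM cannot be given.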
